A study of Mus musculus with 6 samples.

Results

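The p53 response genes Trp53, Cdkn1a, Mdm2, Bax, Ccng1, Phlda3, Eda2r, Sesn2, Btg2 and Gdf15 were examined in the translatome of D2 neurons of the mouse medial prefrontal cortex (mPFC) in which Cas9 was given a guide against Gsk3b. They were taken by gene name from a table of 115220 transcripts of 47729 genes, in which the 10 genes had 31 listed transcripts. The adult male C57BL/6 mice were D2Cre/LSL-Flag-Cas9/RiboTag animals of 2.5 to 3 months at injection, so that Cre-expressing cells of both groups made Cas9 and a hemagglutinin-tagged Rpl22 ribosomal subunit. The Ctrl group (3 libraries) received AAV GFP and therefore had Cas9 with no sgRNA. The Gsk3sKO in mPFC D2 group (3 libraries, called Gsk3sKO from here on) received AAV Gsk3 sgRNA/GFP, whose guide directs Cas9 to an exon of Gsk3b, the gene of a serine-threonine kinase. RiboTag immunoprecipitation pulls down the tagged ribosomes with the RNA bound to them, and tissue was taken 3 weeks after injection. D2Cre is a heterozygous bacterial artificial chromosome transgene, so the cells studied are those in which this transgene was active. With these 2 groups, effects of a Cas9 cut, of the loss of the kinase and of the guide-bearing virus cannot be told apart, and cutting itself was not measured in these libraries.

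The transcription factor p53, product of Trp53, is stabilized when kinases such as Atm sense a DNA double-strand break of the kind that Cas9 makes. It then binds DNA beside its target genes and raises their transcription, and one of these targets, Mdm2, encodes the ubiquitin ligase that removes p53 again. In dividing cells the response halts the cell cycle through p21, the product of Cdkn1a, and can lead to death through Bax. Neurons no longer divide, and in them p53 is known above all for its part in apoptosis after injury. The other members cover feedback and signaling (Ccng1, Phlda3), a receptor of the tumor necrosis factor receptor family (Eda2r), stress defense (Sesn2), antiproliferative control (Btg2) and a secreted stress cytokine (Gdf15).

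The DNA to which p53 binds is made of a pair of 10-base p53 motifs with a short spacer or none. The RefSeq promoter windows of GRCm38.p6, which run from 250 bases before to 50 bases after a gene start, held 12 windows for all 10 members. A pair with at most 13 spacer bases and at most 1 mismatch over both motifs was found in 3 of the 12, against 1.09% of all 32851 windows. The motif reads the same on both strands, so a single search covered them. A pair without a spacer was found in 2 of the 12, against 0.0883% of all windows. A single motif without mismatch was found in 5 of the 12, against 8.36% of all windows, and Mdm2 and Trp53 had only such a single motif. The 3 members with a pair are shown so that the letters in their promoter windows can be set beside their transcript levels. Each stretch is written 5′ to 3′ on the strand of the gene, with the motif pair in capitals. The Cdkn1a stretch is chr17:29090878-29090972 on the plus strand, that of Ccng1 is chr11:40755437-40755531 on the minus strand, and that of Bax is chr7:45467065-45467148 on the minus strand.
Cdkn1a: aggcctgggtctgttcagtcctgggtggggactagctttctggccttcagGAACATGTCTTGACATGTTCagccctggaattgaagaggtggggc
Ccng1: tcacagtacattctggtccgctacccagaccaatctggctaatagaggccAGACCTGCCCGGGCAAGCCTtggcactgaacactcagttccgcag
Bax: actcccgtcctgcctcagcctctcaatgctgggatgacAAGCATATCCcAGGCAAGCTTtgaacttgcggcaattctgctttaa
The Cdkn1a pair lies 51 to 32 bases before the more upstream of the 2 RefSeq starts of this gene, the Ccng1 pair 195 to 176 bases before its start, and the Bax pair, which has 1 spacer base, 212 to 192 bases before its start. The windows of Phlda3, Sesn2, Btg2, Eda2r and Gdf15 and the downstream window of Cdkn1a held no match. A match is a description of the letters, and binding of p53 was not measured here.

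The libraries were compared as FPKM (fragments per kilobase of transcript and per M mapped fragments), summed over the transcripts of a gene to a gene total. Between 40787 and 55841 transcripts were above 0 in a library, and the spacing of low values put the depth at roughly 23.5 to 45.4 M reads. Of the targeted gene Gsk3b, the transcript ENSMUST00000023507 measured 33.5, 34.7 and 36.2 FPKM in Ctrl against 24.8, 21.6 and 21.2 FPKM in Gsk3sKO (log2 fold change -0.61, SE 0.14, limma p = 0.00448, adjusted p = 0.619, exact permutation p = 0.1). A further Gsk3b transcript, ENSMUST00000114750, was at 1.85, 18.7 and 20.03 FPKM in Ctrl and 11.9, 15.4 and 12.5 FPKM in Gsk3sKO (log2 fold change 0.42, limma adjusted p = 0.949, exact permutation p = 1). The Gsk3b gene total overlapped between the groups, with 35.6, 53.8 and 56.5 FPKM against 36.9, 37.0 and 33.6 FPKM (log2 fold change -0.40, limma p = 0.0648, exact permutation p = 0.3). Leaving out Ctrl replicate 1 moved it to -0.61, past the threshold. In mice without the RiboTag allele, the study reported that most mPFC neurons with Cas9 and the guide had no GSK3β staining. That is a measure of protein, unlike the RNA levels given here. Neuronal markers summed to between 2579 and 2839 FPKM in the 6 libraries and exceeded the astrocyte (144 to 192 FPKM), oligodendrocyte (118 to 183 FPKM), microglia (12.4 to 25.3 FPKM) and endothelial (11.2 to 41.9 FPKM) sums, so RNA of other cell types was present. Drd2, the defining gene of the labeled cells, was at 1.58, 6.02 and 14.1 FPKM in Ctrl and 8.32, 5.96 and 7.28 FPKM in Gsk3sKO. Whether each library stands for 1 mouse or for pooled mice is not given in the sources, so the p-values reflect the variation among these libraries, part of which may be technical.

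Of the 10 genes, Bax and Phlda3 fell in Gsk3sKO, to less than the lowest Ctrl value in every Gsk3sKO library. Of the 8 members that passed a mean of 1 FPKM and could be tested, 3 had a log2 fold change above 0 and 0 were called higher at an unadjusted limma p under 0.05, where 1.36% of all 12874 gene totals were. The count of members called lower was 2 of 8, where 5.20% of all gene totals were. No member passed an adjusted p of 0.05, while 6 gene totals (0.0466%) in the whole table did. The median log2 fold change of the 8 members was -0.19, beside -0.06 over all gene totals. The plot of gene totals by library shows the 10 genes as a pair that separated the groups, 6 that did not, and 2 that were at or near 0. Of all gene totals tested, 8.30% separated the groups with Gsk3sKO lower and 3.71% with Gsk3sKO higher.

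**Figure D1:**
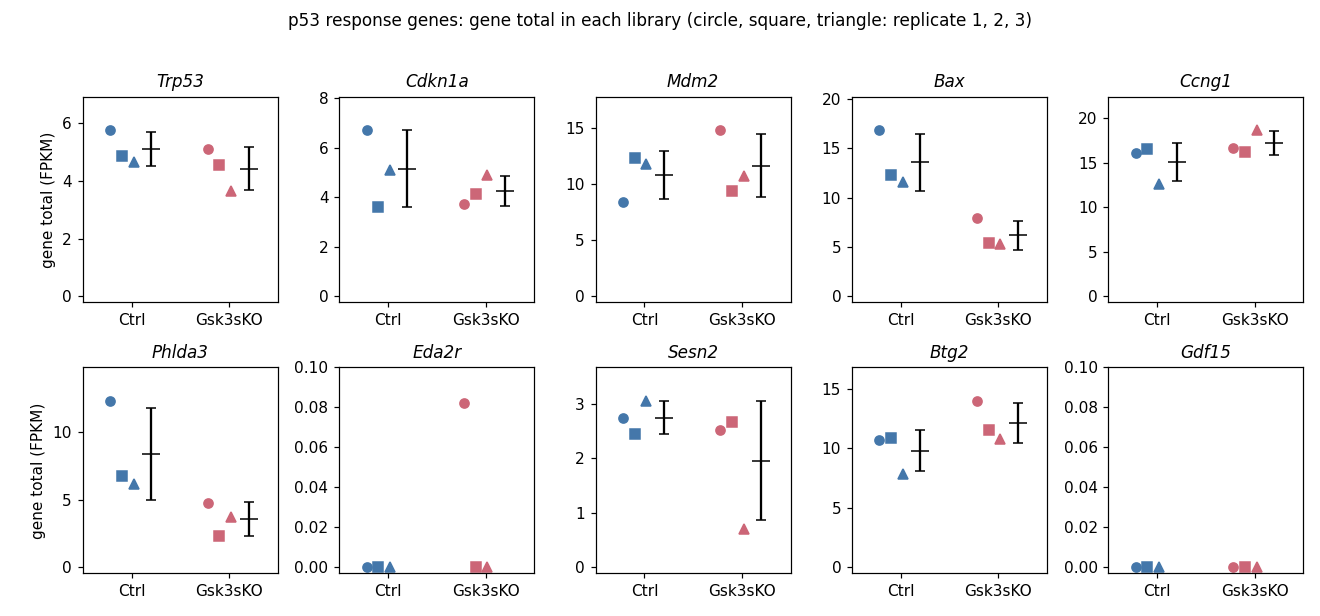
Gene totals in FPKM (vertical axis, from 0, a separate scale for each gene) of the 10 p53 response genes in the 3 Ctrl and 3 Gsk3sKO libraries. Each point is 1 library and the bar beside the points is the mean ± SD, left out for Eda2r and Gdf15. Only for Bax and Phlda3 do all Gsk3sKO points lie below all Ctrl points.

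Bax encodes the pore-forming protein by which p53 can open the outer mitochondrial membrane. Its gene total was 16.8, 12.3 and 11.6 FPKM in Ctrl and 7.91, 5.36 and 5.26 FPKM in Gsk3sKO, all of it in the single listed transcript ENSMUST00000033093. The groups did not overlap, and Ctrl replicate 1 was the highest of its group. The mean was 13.6 ± 2.86 FPKM (SD, n = 3) in Ctrl and fell by 54.5% to 6.17 ± 1.5 FPKM (SD, n = 3) in Gsk3sKO. The log2 fold change on the log2(FPKM + 1) scale was -1.02 (SE 0.23, limma p = 0.00189, adjusted p = 0.426), and the 2-sided exact permutation test gave p = 0.1, the smallest that 3 against 3 libraries allow. Bax remained called in each of 13 alternative settings, with log2 fold changes between -1.19 and -0.81 and adjusted p-values between 0.217 and 0.951. Bax lies on chromosome 7 of GRCm38 from 45461697 to 45466898, where GENCODE M21 also places the same-strand gene Gm45808, so reads of the overlap cannot be told apart.

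Phlda3 encodes a pleckstrin-homology protein that competes with Akt for membrane lipids. Its gene total was 12.4, 6.79 and 6.16 FPKM in Ctrl and 4.8, 2.31 and 3.70 FPKM in Gsk3sKO. Here too every Gsk3sKO library was below every Ctrl library, and Ctrl replicate 1 stood above both other Ctrl libraries. The mean was 8.43 ± 3.41 FPKM (SD, n = 3) in Ctrl and fell by 57.2% to 3.60 ± 1.25 FPKM (SD, n = 3) in Gsk3sKO. The log2 fold change was -1.01 (SE 0.32, limma p = 0.0124, adjusted p = 0.671, exact permutation p = 0.1). Without Ctrl replicate 1 it was -0.73 and still called, and without moderation of the variances by limma the call was lost. Groups that did not overlap, with Gsk3sKO lower, were found for 8.30% of all gene totals, and 3.71% had Gsk3sKO higher.

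Markers of glia moved in the same direction as Bax and Phlda3. Of the 6 oligodendrocyte markers 3 fell (Mog, Cnp and Mag, log2 fold changes -1.57, -0.72 and -0.69), and their summed level ranged from 118 to 183 FPKM in Ctrl and from 128 to 165 FPKM in Gsk3sKO. Of the 5 tested microglia markers 1 fell (C1qa, -0.82), and the sum over all 6 ranged from 14.2 to 25.3 FPKM in Ctrl and from 12.4 to 15.4 FPKM in Gsk3sKO. Mog was listed at 0 in Gsk3sKO replicates 2 and 3, and no other marker of these lists was listed at 0. With GC content and length corrected, Mog and Mag were still called and Cnp and C1qa were not. In bulk RNA, fewer cells of a type and less RNA per cell cannot be told apart, and the part of glial RNA in the lower Bax and Phlda3 was not tested.

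Trp53 itself, the gene of p53, was not called. Its gene total was 5.77, 4.88 and 4.67 FPKM in Ctrl and 5.11, 4.54 and 3.64 FPKM in Gsk3sKO. The groups overlapped, with a log2 fold change of -0.18 (SE 0.22, 95% interval -0.68 to 0.33, limma adjusted p = 0.912, exact permutation p = 0.4), and it was -0.066 without Gsk3sKO replicate 3. Since p53 is controlled mainly at the level of protein stability, the RNA is not a measure of its activity. At 4.77 FPKM on average, Trp53 stood at the 33.1 percentile of the tested gene totals.

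Cdkn1a, which encodes the cell cycle inhibitor p21 and is the target most often read as a sign of p53 activity, was not called. Its gene total was 6.72, 3.61 and 5.10 FPKM in Ctrl and 3.74, 4.12 and 4.90 FPKM in Gsk3sKO, and all Gsk3sKO values lay within the Ctrl range. It had a log2 fold change of -0.20 (SE 0.26, limma adjusted p = 0.914, exact permutation p = 0.5). With all 6 libraries the 95% interval ran from a 0.578-fold to a 1.31-fold level on the FPKM + 1 scale. A rise above 1.31-fold lay outside it. Without Ctrl replicate 1 the log2 fold change was -0.02 (SE 0.26), so the upper limit then lay higher and depends on that library. The Cdkn1a stretch shown above stands next to the start of ENSMUST00000119901, and this transcript was listed at 0 in all 6 libraries. The signal came from ENSMUST00000023829, which starts further downstream at 29093769 on chromosome 17, with 6.68, 3.51 and 4.81 FPKM in Ctrl and 3.71, 3.93 and 3.08 FPKM in Gsk3sKO. Among the 3 genes most like Cdkn1a over the 6 libraries, by Pearson r of log2(FPKM + 1), were Arl6ip4 and Nppc (each r = 0.98, n = 6 libraries, given as a description).

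Mdm2, the feedback ligase of p53, had totals of 8.35, 12.3 and 11.8 FPKM in Ctrl and 14.8, 9.40 and 10.7 FPKM in Gsk3sKO. The highest and the second lowest value both came from Gsk3sKO. The log2 fold change was 0.09 (SE 0.23, 95% interval -0.43 to 0.62, limma adjusted p = 0.955, exact permutation p = 0.8), and it turned to -0.07 without Ctrl replicate 1 and to -0.08 without Gsk3sKO replicate 1. Mdm2 is known for another promoter in intron 1 that answers to p53, apart from the constitutive one before exon 1. In GRCm38 this intron is chr10:117710029-117710551, and 2 listed transcripts, ENSMUST00000137102 and ENSMUST00000147823, start in it. Both are noncoding, of 683 and 499 bases. Their summed level was 1.40, 2.72 and 0.878 FPKM in Ctrl and 5.98, 0.567 and 0 FPKM in Gsk3sKO. Both the highest and the lowest of these values were Gsk3sKO libraries, so the groups overlapped. The start of ENSMUST00000155285 is annotated at base 7 of exon 2, close to the end of the intron. Counted with the other 2, it brought the sum to 1.40, 2.72 and 7.06 FPKM in Ctrl and 5.98, 0.567 and 2.78 FPKM in Gsk3sKO, and the highest value was then a Ctrl library. The 5 transcripts that start in exon 1 summed to 6.85, 9.19 and 4.69 FPKM in Ctrl and to 8.79, 8.82 and 7.46 FPKM in Gsk3sKO. Both listed protein-coding transcripts are among these, and none starts in the intron, so the sums do not measure the use of either promoter.

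Ccng1, which encodes cyclin G1 and whose promoter window holds a motif pair, was the highest of the 10 genes, with 16.1, 16.6 and 12.6 FPKM in Ctrl and 16.7, 16.2 and 18.7 FPKM in Gsk3sKO. Ctrl replicate 3 was the lowest library, and the groups overlapped. Its log2 fold change was 0.18 (SE 0.17, limma adjusted p = 0.873, exact permutation p = 0.2) with a 95% interval up to a 1.48-fold level, and it was 0.066 without Ctrl replicate 3. The 3 genes with a motif pair thus had log2 fold changes of 0.18 (Ccng1), -0.20 (Cdkn1a) and -1.02 (Bax).

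Btg2, an antiproliferative gene that also belongs to the immediate early genes of neurons, had totals of 10.7, 10.9 and 7.84 FPKM in Ctrl and 14.0, 11.5 and 10.8 FPKM in Gsk3sKO. The lowest Gsk3sKO library was just under the highest Ctrl library. The log2 fold change was 0.28 (SE 0.20, 95% interval -0.17 to 0.74, limma adjusted p = 0.833, exact permutation p = 0.2), the largest positive one among the members. Of all 12874 gene totals, 7584 had a log2 fold change below 0. So had all 11 other immediate early genes, among them Fos, Egr1, Junb and Arc, with values from -0.53 to -0.03. None of these 11 was called in either direction. Their median log2 fold change was -0.26, and it was -0.21 after median ratio rescaling and -0.14 once GC content and length were corrected for. That of all gene totals was -0.06, -0.01 and 0.02 in the same order.

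Sesn2, which encodes a stress-induced inhibitor of mTORC1 signaling, was at 2.73, 2.45 and 3.05 FPKM in Ctrl and 2.52, 2.66 and 0.698 FPKM in Gsk3sKO. Gsk3sKO replicate 3 alone was low, and the other 5 libraries lay close together. The log2 fold change of -0.42 (SE 0.35, limma adjusted p = 0.865, exact permutation p = 0.3) became -0.06 without that library. Sesn2 overlaps the same-strand gene Gm12981 in GENCODE M21.

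Eda2r, the receptor for the EDA-A2 form of ectodysplasin, was listed at 0 in 5 libraries and at 0.0825 FPKM in Gsk3sKO replicate 1, which corresponds to about 16.2 reads. Gdf15, the gene of a secreted stress cytokine of the TGF-β superfamily, was listed at 0 in all 6 libraries. The 2 genes were too low for a test, and no fold is given. The other genes of the ATF4 stress pathway, which also drives Sesn2 and Gdf15, were not all silent. Ddit3 was between 26.0 and 40.4 FPKM over the 6 libraries, and Atf4 between 42.6 and 68.6 FPKM. Ddit3 had a log2 fold change of 0.22 (limma adjusted p = 0.857, exact permutation p = 0.3) and was called higher with GC content and length corrected. Cebpb was called lower, with 2.51, 2.55 and 1.52 FPKM in Ctrl and 0.254, 0.881 and 0.350 FPKM in Gsk3sKO (log2 fold change -1.10, limma p = 0.0095, adjusted p = 0.651, exact permutation p = 0.1).

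On the FPKM scale, which is per transcript length, the mean levels over all libraries ran in the order Ccng1 (16.2 FPKM), Mdm2 (11.2 FPKM), Btg2 (10.96 FPKM), Bax (9.87 FPKM), Phlda3 (6.02 FPKM), Trp53 (4.77 FPKM), Cdkn1a (4.70 FPKM), Sesn2 (2.35 FPKM), Eda2r and Gdf15. The ranges of neighbors in this order overlapped down to Cdkn1a. Every Sesn2 library was below every Cdkn1a library, and every Eda2r library was below every Sesn2 library.

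The division of reads among transcripts of a gene was unstable for the members with several listed transcripts. For Mdm2, the coding transcript ENSMUST00000020408 was at 0, 7.28 and 0.418 FPKM in Ctrl and 8.76, 8.46 and 0.0350 FPKM in Gsk3sKO. The other coding transcript, ENSMUST00000105263, was at 6.31, 0.0343 and 3.74 FPKM in Ctrl and 0, 0 and 2.40 FPKM in Gsk3sKO. The libraries that were high in one were low in the other, and together they came to 6.31, 7.31 and 4.16 FPKM in Ctrl and 8.76, 8.46 and 2.43 FPKM in Gsk3sKO. The nonsense-mediated decay transcript ENSMUST00000155285, at 6.18 FPKM in Ctrl replicate 3 and 2.78 FPKM in Gsk3sKO replicate 3, was listed at 0 elsewhere. ENSMUST00000137102, one of those starting in intron 1, reached 5.85 FPKM in Gsk3sKO replicate 1 and at most 2.09 FPKM in any other library.

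For Trp53, ENSMUST00000005371 was at 1.01, 3.09 and 3.91 FPKM in Ctrl and 3.80, 3.49 and 0 FPKM in Gsk3sKO. It held between 0% and 83.6% of the gene total. In Ctrl replicate 1 the short noncoding transcript ENSMUST00000130540 held 57.3% of it, and in Gsk3sKO replicate 3 the coding transcript ENSMUST00000171247 held 81.3%. For Cdkn1a, ENSMUST00000023829 held 94.3% to 99.4% of the gene total in 5 libraries and 62.9% in Gsk3sKO replicate 3, where ENSMUST00000122348 held 37.1%. Of 11 member transcripts with a mean of at least 1 FPKM, 0 were called higher and 2 lower (Bax and Phlda3), against 1.81% and 3.75% of all 21584 transcripts. For Bax, Phlda3, Sesn2, Btg2 and Ccng1 a single transcript carried the whole gene total, so their values are those given above.

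**Figure D2:**
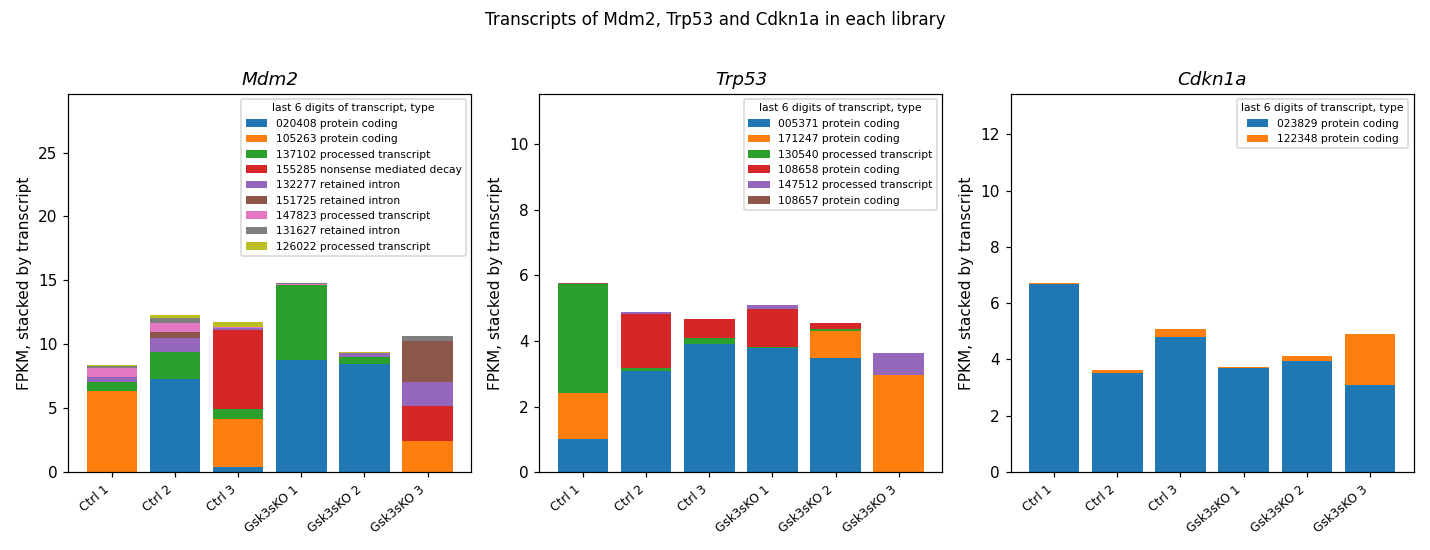
FPKM of each listed transcript above 0, stacked to the gene total (vertical axis, from 0), for Mdm2, Trp53 and Cdkn1a in each library. The colors change from library to library for Mdm2 and Trp53, within both groups, while ENSMUST00000023829 makes up most of Cdkn1a in every library.

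GC content, and less closely the length of the leading transcript, ran alongside the log2 fold changes of the members. The leading transcripts of Ccng1, Mdm2 and Btg2, which had positive log2 fold changes, held 40.8%, 46.3% and 49.7% GC. Those of Trp53, Cdkn1a, Sesn2, Bax and Phlda3, with negative log2 fold changes, held 54.1%, 54.6%, 58.7%, 59.2% and 62.6% GC. Spearman's rho between GC content and log2 fold change was -0.90 over the 8 tested members and -0.21 over 12831 gene totals. Between the length of the leading transcript and log2 fold change, rho was 0.64 over these members and 0.19 over these gene totals. Each rho is across genes, which share the same 6 libraries. In the class of at least 55% GC, which holds Bax, Phlda3 and Sesn2, 7.61% of 3261 gene totals were called lower and 0.859% higher, with a median log2 fold change of -0.15. Below 45% GC, 3.44% of 2933 gene totals were called lower and 2.28% higher, with a median of 0.03.

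With a correction for GC content and length in each library, chosen after the data were seen, Bax remained lower at -0.81 (SE 0.19) and Phlda3 at -0.81 (SE 0.30), both still called. Cdkn1a moved to -0.07, Trp53 to -0.06, Sesn2 to -0.27, Mdm2 to 0.14, Ccng1 to 0.14 and Btg2 to 0.37, and none of these was called. The correction changed the calls over all gene totals from 175 higher and 669 lower to 439 higher and 360 lower. Median ratio rescaling of the libraries gave 276 higher and 528 lower, with Bax at -0.97 and Phlda3 at -0.97, both still called. No member changed sign under either.

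**Figure D3:**
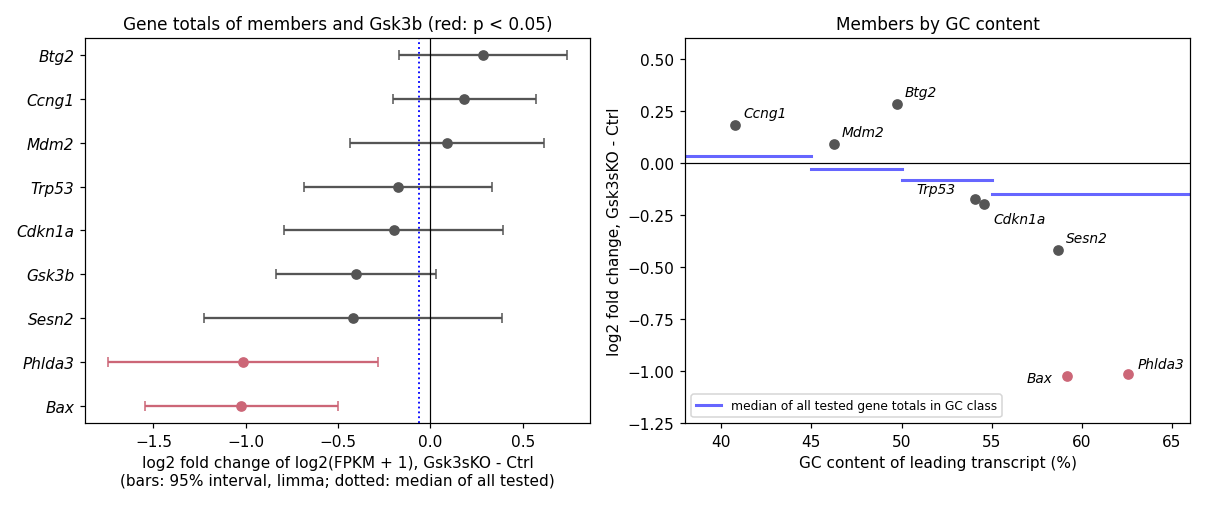
Left, log2 fold change of the gene totals (Gsk3sKO minus Ctrl, on log2(FPKM + 1)) of the 8 tested members and Gsk3b with 95% intervals from limma, and a dotted line at the median of all gene totals, -0.06. Right, the same log2 fold changes of the members against the GC content of the leading transcript in percent, with the median of all tested gene totals in each of 4 GC classes as horizontal lines. Only the intervals of Bax and Phlda3 exclude 0, and the members above 50% GC lie below 0.

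The calls in the other lists of the pathway are counted below. Beside each count stands the share of all gene totals called, 1.36% higher and 5.20% lower. The lists are too short to set their counts apart from these shares. Among 29 tested other p53 targets, 0 were called higher and 1 lower, with a median log2 fold change of -0.13. The list includes Plk2, Sesn1, Zmat3, Ei24, Rrm2b, Gadd45a, Bbc3 and Pmaip1. Of the 29, 9 had a log2 fold change above 0 and 20 below 0, from -0.96 (Cdip1) to 0.41 (Perp). The groups of Ddb2 did not overlap, with Gsk3sKO lower (log2 fold change -0.79, limma adjusted p = 0.78, exact permutation p = 0.1), as for 8.30% of all gene totals. Trp53inp1 averaged 0.883 FPKM, under the filter, and was not tested by limma. It was at 0.890, 1.72 and 1.39 FPKM in Ctrl and 0.624, 0.250 and 0.433 FPKM in Gsk3sKO (exact permutation p = 0.1). The gene called lower was Aen, an apoptosis-enhancing nuclease, with 6.05, 10.02 and 9.81 FPKM in Ctrl and 4.30, 7.15 and 3.97 FPKM in Gsk3sKO (log2 fold change -0.66, limma p = 0.046, adjusted p = 0.752, exact permutation p = 0.2). Its groups overlapped, and it was called in only 4 of 13 alternative settings. The proapoptotic targets Bbc3 (PUMA) and Pmaip1 (NOXA), which act upstream of Bax, had log2 fold changes of 0.08 and -0.10.

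Of the regulators of p53 and damage kinases, 14 were tested and 0 were called in either direction. Their median was -0.04, beside -0.06 over all gene totals. After median ratio rescaling these medians were 0.01 and -0.01, and with GC content and length corrected they were -0.04 and 0.02. Mdm4, the relative of Mdm2 that binds p53 and masks it, was at 8.12, 9.34 and 11.8 FPKM in Ctrl and 6.73, 7.29 and 7.05 FPKM in Gsk3sKO. Its groups did not overlap, the log2 fold change was -0.41 (limma adjusted p = 0.779, exact permutation p = 0.1), and it was called lower with GC content and length corrected. The kinases Atm, Atr and Prkdc had log2 fold changes of 0.07, 0.02 and -0.29, and Chek1 and Chek2 were below 1 FPKM in every library.

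Of 16 tested genes of double-strand break repair, 1 was called higher and 1 lower, with a median of -0.01. It was 0.04 after median ratio rescaling and 0.09 with GC content and length corrected. The median of all gene totals moved as well, from -0.06 to -0.01 and 0.02. Poll, the DNA polymerase lambda that fills gaps during end joining, was at 1.17, 2.02 and 2.54 FPKM in Ctrl and 3.20, 5.21 and 3.80 FPKM in Gsk3sKO. Every Gsk3sKO library was above every Ctrl library (log2 fold change 0.81, SE 0.30, limma p = 0.0244, adjusted p = 0.702, exact permutation p = 0.1), and the call was lost without Ctrl replicate 1 or without Gsk3sKO replicate 2. H2afx, whose histone is phosphorylated around breaks, was at 22.5, 16.7 and 21.6 FPKM in Ctrl and 17.3, 14.4 and 9.98 FPKM in Gsk3sKO (log2 fold change -0.53, limma p = 0.0441, adjusted p = 0.75, exact permutation p = 0.2), and it was called in 4 of 13 alternatives. The core end-joining genes Xrcc5, Xrcc6 and Xrcc4 had log2 fold changes of 0.17, 0.03 and 0.09.

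Of 15 tested genes of the BCL2 family and caspases other than Bax, 0 were called, with a median of -0.13. Bak1, the closest relative of Bax in function, was at 0.981, 2.41 and 2.55 FPKM in Ctrl and 1.14, 1.46 and 0 FPKM in Gsk3sKO (log2 fold change -0.73, limma adjusted p = 0.802). Bcl2l1, which encodes the survival protein that restrains Bax, was at 43.9, 38.7 and 41.0 FPKM in Ctrl and 38.4, 14.6 and 33.9 FPKM in Gsk3sKO. Its groups did not overlap, and the log2 fold change was -0.60 (limma adjusted p = 0.792). Of 12 tested cyclins, CDKs and CDK inhibitors, 1 was called, Ccne1 (cyclin E1), with 9.52, 11.01 and 9.05 FPKM in Ctrl and 5.46, 5.77 and 7.67 FPKM in Gsk3sKO (log2 fold change -0.58, limma p = 0.02, adjusted p = 0.688, exact permutation p = 0.1). It was called in 9 of 13 alternatives, not with GC content and length corrected. Of 10 tested family relatives of the members, 0 were called.

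**Figure D4:**
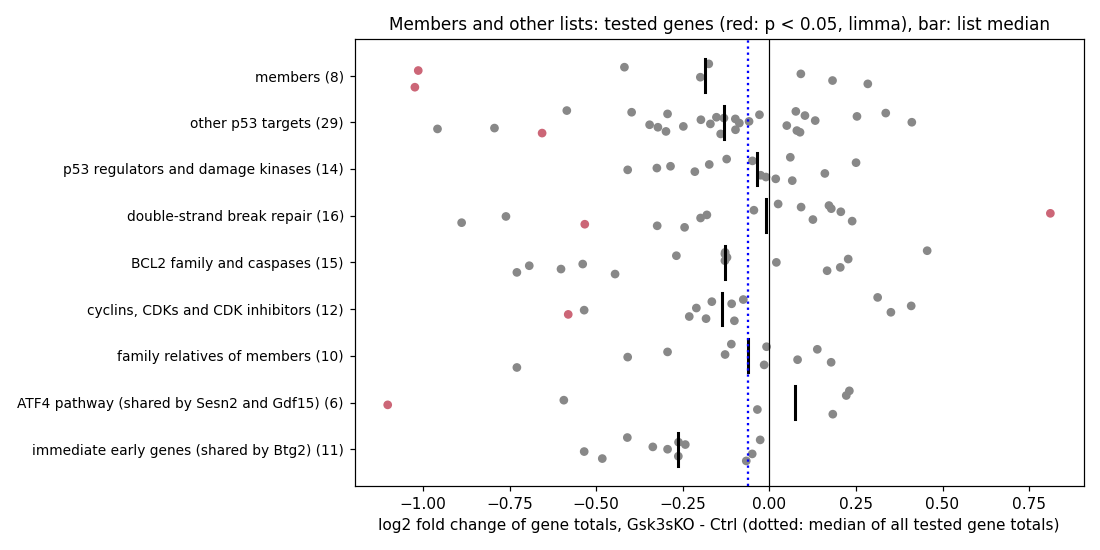
Log2 fold change of the gene totals (horizontal axis, Gsk3sKO minus Ctrl) of each tested gene in the 10 p53 response genes and 8 lists around them, with the number tested in parentheses. Each point is 1 gene, red at an unadjusted limma p under 0.05, the black bar is the list median, and the dotted line is the median of all gene totals. Poll is the one red point to the right of 0.

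**Figure D5:**
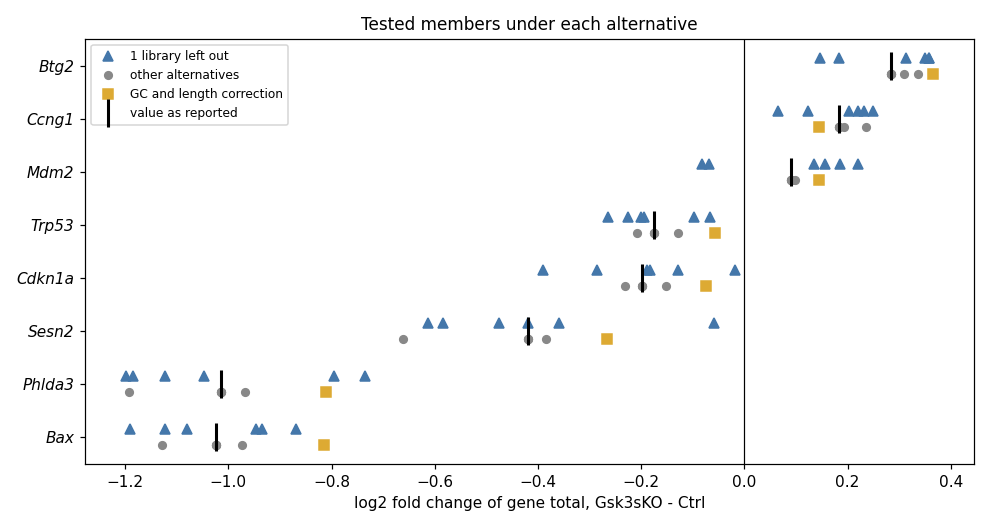
Log2 fold change of the gene total of each tested member (horizontal axis) as reported, with 1 library left out, under the other settings and with GC content and length corrected. Bax and Phlda3 stay below -0.7 throughout, and Mdm2 is the one member whose points lie on both sides of 0.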

How the data were processed

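Ribosome-associated RNA from 3 Ctrl and 3 Gsk3sKO libraries was analyzed, each library being placed by the submitters' labels and by the viruses the study describes. FPKM is the unit of the table the authors deposited, 1 value per transcript in every library. It was made with HISAT2 2.1.0, SAMtools 1.9 and StringTie 1.3.4d on GRCm38 according to the submitters' processing notes. StringTie divides reads between overlapping transcripts by estimate. Their settings, and the test behind the deposited comparison, were not found in the sources read. The fold, p-value and q-value columns that the authors deposited beside them hold their own comparison and were left aside, while no library's column was excluded.

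FPKM values were summed by gene ID. On log2(FPKM + 1), gene totals and transcripts averaging 1 FPKM or more across the 6 libraries were compared by limma 3.58.1 (R 4.3.3, lmFit and a trended eBayes) with no covariates. Tests were 2-sided, with Benjamini-Hochberg adjustment over all features tested, and a feature was called at an unadjusted p under 0.05. A threshold for the study's own transcript comparison was not found in the sources read. This scale understates the change of low genes. Single genes were also tested by exact permutation over the 6 libraries, whose smallest p is 0.1. The procedure was run on simulated data set at higher levels than the real ones, so its behavior at the low levels of several members was not tested. Depth was estimated from low FPKM values and is approximate, since 22.7% to 37.1% of them were within 0.03 of a whole read. The table holds no counts, so no counting interval is given. Transcripts were matched to GENCODE M21 (114237 of 115220), and promoter windows are from RefSeq. The GC content and length of a gene are those of its leading transcript. Alternatives were a pseudocount of 0.1, no filter or a filter at 5 FPKM, median ratio rescaling, no moderation, a replicate block and leaving out each library. A correction for GC content and length was added after the data were seen. Python 3.11.15, pandas 2.3.3, numpy 2.4.6 and matplotlib 3.10.9 were used.

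The 10 genes and the lists around them were chosen with earlier results of these data known. The genes named are the 10 members, their transcripts averaging 1 FPKM or more, Gsk3b, every list gene that was called, relatives of a member, and the 3 genes most like Cdkn1a, 1 of which is not reported here. Other genes (Mdm4, the damage kinases, Xrcc4, Xrcc5, Xrcc6, Bbc3, Pmaip1, Ddb2, Trp53inp1, Cdip1, Perp, Bcl2l1, Atf4, Ddit3, Drd2 and the remaining transcripts) were chosen after their values were seen.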

Additional observations from a re-analysis of the deposited data

How the results depend on the processing

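Each tested member kept its direction in all alternatives but Mdm2, which was -0.069 without Ctrl replicate 1 and -0.082 without Gsk3sKO replicate 1, the lowest of a range up to 0.22 without 1 library each. The cause was not tested. The count of members called by gene total was 2 under all alternatives except that without moderation of the variances, where it was 1 for gene totals and 1 for transcripts and Phlda3 (-1.01) lost its call. Without 1 library each, the count for transcripts ranged from 1 to 2. Over all transcripts, 1917 were called with no filter and 590 with a filter at 5 FPKM, which test more and fewer transcripts than the 1200 called of 21584. Cdkn1a, Trp53 and Sesn2 have means under 5 FPKM and so have no value under that filter. Without 1 library each, Bax ranged from -1.19 to -0.87, Phlda3 from -1.20 to -0.73, Sesn2 from -0.61 to -0.06, Cdkn1a from -0.39 to -0.02, Trp53 from -0.26 to -0.066, Ccng1 from 0.066 to 0.25 and Btg2 from 0.15 to 0.36. Gsk3b was called at -0.40 with the GC and length correction. Replicate numbers gave no sign of a pairing in the values, since the deviations of same-numbered libraries had correlations of -0.03, -0.01 and -0.08. Those of differently numbered libraries ran from -0.03 to 0.05. Whether libraries were paired in their preparation was not found in the sources read. A fit with the replicate block called 821 gene totals, gave Bax -1.02 (SE 0.20) and Phlda3 -1.01 (SE 0.26), and changed no call of a member. At these depths the FPKM of Eda2r and Gdf15 allow no comparison.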
